A study of Homo sapiens with 11 samples.

Results

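The genes described here are 48 human genes of the cell cycle and mitosis. They were chosen by symbol for their known roles, but with earlier results of these data known. All 48 were found among the 28252 genes with RNA-Seq values in RT4 cells and among the 26237 genes with promoter H3K4me3 values in BEAS-2B cells. They form 2 lists that are described apart, 23 genes of the G1/S step and S phase and 25 genes of G2 phase and mitosis (G2/M). RT4 is a line from a non-invasive human bladder cancer, and BEAS-2B is an immortalized line of human bronchial epithelial cells. In each line, untreated cells (UT) were set against cells kept in 100 μM NiCl2 for 6 weeks (Ni-E) and against cells then returned to medium without nickel (Ni-W). RT4 Ni-W cells spent 2 weeks without nickel, and each of the 3 RT4 groups had 2 RNA-Seq samples, named replicates 1 and 2 here. BEAS-2B Ni-W cells spent more than 6 months without nickel and grew from 1 colony, so that they stand for 1 clone, and each BEAS-2B condition had 1 H3K4me3 library. The question was how far genes of each phase differed while nickel was present and after it was removed.

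The cell cycle is driven by cyclins, which switch on partner kinases in turn. Cyclin D and cyclin E kinases free the E2F factors, which turn on genes for origin licensing, replication and nucleotide synthesis. Later, B-MYB and FOXM1 act with the MuvB complex on genes for the spindle, the kinetochore and chromosome segregation, and cyclin B with CDK1 starts mitosis. Levels of both kinds of gene are commonly read as signs of proliferation in epithelial cell lines. H3K4me3, trimethylation of lysine 4 of histone H3, marks promoters of active genes and of genes held ready for transcription. In bulk RNA, fewer cells in a phase and less RNA per cell in that phase cannot be told apart.

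The RT4 libraries totalled 17075833 to 27736454 estimated counts, and each replicate 1 library (at most 18280556) was smaller than each replicate 2 library (at least 25721265). All 6 epithelial markers reached 1 TPM (a level corrected for transcript length and depth) in at least 1 RT4 library, while the summed levels of the fibroblast, immune and endothelial markers reached at most 5.08, 0.73 and 1.9 TPM. The summed level of 6 urothelial markers was 976 to 1077 TPM in UT, 648 to 651 TPM in Ni-E and 947 to 1002 TPM in Ni-W. The uroplakin genes UPK1A, UPK1B, UPK2 and UPK3A were lower in both Ni-E samples than in both UT samples. UPK2 had 285 and 402 TPM in UT and 96.2 and 128 TPM in Ni-E. GATA3 overlapped between these groups (236 and 197 TPM in UT, 211 and 179 TPM in Ni-E). PPARG was slightly higher in Ni-E (217 and 215 TPM) than in UT (207 and 204 TPM). The sum was thus lower in the same RT4 samples in which G2/M genes were lower, and its part in the results below was not tested. In BEAS-2B cells, 5 of the 6 epithelial promoters reached 1 RPKM of H3K4me3 in a library (KRT19 did not), as did 2 of 6 urothelial promoters (GATA3 and PPARG), 2 of 5 fibroblast promoters (COL1A1 and PDGFRB), 1 of 3 immune promoters (CD14) and 0 of 3 endothelial promoters. CDH1 reached it in UT alone (1.02 RPKM, against 0.653 in Ni-E and 0.702 in Ni-W). COL1A1 had 8.74 RPKM in UT, above each epithelial promoter there (at most 7.33 RPKM, at KRT8). In that line, reads summed over the listed promoter windows came to 37.6% of the UT library and 36.0% of the Ni-E library, against 22.9% for Ni-W. A read in overlapping windows counts more than once in these sums. The part of this gap in the Ni-W results was not tested. RefSeq promoters (250 bases before to 50 bases after the start, GRCh38.p14) were matched to 37 of the 48 genes. The genes with no entry were CCND1, CCNE2, CDK2, E2F5, MCM4, MCM5, FOXM1, AURKA, BIRC5, UBE2C and TPX2.

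G1/S and S promoters and G2/M promoters differed in their sequence motifs. Either of the E2F-type motifs TTCCCGC and TTGGCGC, on either strand, was present in 70.6% of the 17 G1/S and S promoters, 20% of the 20 G2/M promoters and 9.33% of all 27305 promoters of the same length. For the same motifs with a further T in front, these shares were 64.7%, 10% and 2.31%. The cell cycle homology region (CHR, searched as TTTGAA or TTTAAA on both strands), the element on which the MuvB complex acts, was in 17.6% of the G1/S and S promoters, 75% of the G2/M promoters and 24.3% of all promoters. A CCAAT box, the site of NF-Y, was in 70.6%, 80% and 35.7% of them. CHR and CCAAT stood together in 11.8% of the G1/S and S promoters, 65% of the G2/M promoters and 9.49% of all promoters. The median share of G and C bases was 67.7% in the G1/S and S promoters, 60.7% in the G2/M promoters and 58.3% in all promoters. The part of this difference in the motif shares was not tested. A match is a description of the letters and not a bound site.

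The 170 bases before the start of 6 members are shown because the results turn on these genes, which were chosen after their values were seen. TYMS, RRM2 and PCNA are S-phase genes that were higher in RT4 Ni-E cells, KIF20A and PLK1 had the lowest G2/M fold changes there, and CDK1 had the highest H3K4me3 score in BEAS-2B Ni-W cells. Capitals mark the short E2F-type motif, CHR and CCAAT on either strand, a motif on the other strand shown as its reverse complement, and all are written 5′ to 3′ on the strand of the gene.
TYMS (chr18:657483-657652, plus strand): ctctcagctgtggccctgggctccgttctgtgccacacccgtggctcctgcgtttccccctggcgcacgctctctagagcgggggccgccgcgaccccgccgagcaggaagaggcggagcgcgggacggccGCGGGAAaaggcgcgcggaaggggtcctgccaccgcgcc
RRM2 (chr2:10122569-10122738, plus strand): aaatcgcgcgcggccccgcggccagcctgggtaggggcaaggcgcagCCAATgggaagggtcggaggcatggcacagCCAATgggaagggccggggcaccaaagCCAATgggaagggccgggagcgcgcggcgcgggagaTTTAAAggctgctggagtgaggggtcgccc
PCNA (chr20:5126623-5126792, minus strand): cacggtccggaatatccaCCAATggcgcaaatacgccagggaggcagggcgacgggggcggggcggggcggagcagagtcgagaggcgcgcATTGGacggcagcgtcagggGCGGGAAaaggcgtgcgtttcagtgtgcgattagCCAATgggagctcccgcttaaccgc
KIF20A (chr5:138178942-138179111, plus strand): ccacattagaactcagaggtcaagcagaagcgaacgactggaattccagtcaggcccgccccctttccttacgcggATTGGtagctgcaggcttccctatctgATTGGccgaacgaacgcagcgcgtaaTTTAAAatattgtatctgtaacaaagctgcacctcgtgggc
PLK1 (chr16:23678719-23678888, plus strand): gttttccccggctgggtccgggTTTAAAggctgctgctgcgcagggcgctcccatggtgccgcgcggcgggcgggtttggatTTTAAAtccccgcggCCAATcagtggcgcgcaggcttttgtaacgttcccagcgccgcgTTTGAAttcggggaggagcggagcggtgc
CDK1 (chr10:60778161-60778330, plus strand): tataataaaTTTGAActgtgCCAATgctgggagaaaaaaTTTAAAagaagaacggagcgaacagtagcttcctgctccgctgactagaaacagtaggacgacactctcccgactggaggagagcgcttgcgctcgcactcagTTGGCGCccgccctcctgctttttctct
Within these windows, TYMS held 1 E2F-type motif at −39 from the start and neither of the other elements. PCNA held an E2F-type motif at −59 and CCAAT at −152, −79 and −25. RRM2 held CCAAT at −123, −93 and −66 and a CHR at −30, the arrangement that was common in the G2/M list. KIF20A likewise held CCAAT at −94 and −67 and a CHR at −41. PLK1 held CHR matches at −148, −88 and −29 and CCAAT at −73. CDK1 was mixed, with CHR matches at −161 and −131, CCAAT at −150 and an E2F-type motif at −28.

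All 48 genes passed the filter on low counts in RT4 cells and were among 14502 genes tested. On a scale that allows genes to be compared, their mean level over the 6 samples ran from 2.71 TPM for E2F2 to 444 TPM for PCNA. CCND1 (261 TPM), UBE2C (231 TPM), MCM3 (225 TPM) and TYMS (219 TPM) followed PCNA. All other RT4 levels below are normalised CPM, estimated counts scaled by depth and library composition, and these compare samples within a gene. A gene was called at a change of at least 1.5-fold and an adjusted p below 0.05 (edgeR quasi-likelihood test, Benjamini-Hochberg adjustment over all 14502 genes), and "rose" or "fell" is written for called genes alone. This fit leaves out the replicate number. A fit with that number as a block, described at the end, called more members and more of all genes. Some members with an adjusted p above 0.05 here were below 0.05 in that fit but short of 1.5-fold. Errors of log2 fold changes are approximate standard errors (SE), with n = 2 samples a group. The summed level of the 23 G1/S and S genes was 2190 and 1745 TPM in UT, 2881 and 2533 TPM in Ni-E, and 2540 and 1830 TPM in Ni-W. That of the 25 G2/M genes was 1451 and 1297 TPM in UT, 1192 and 1122 TPM in Ni-E, and 1913 and 1579 TPM in Ni-W.

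**Figure D1:**
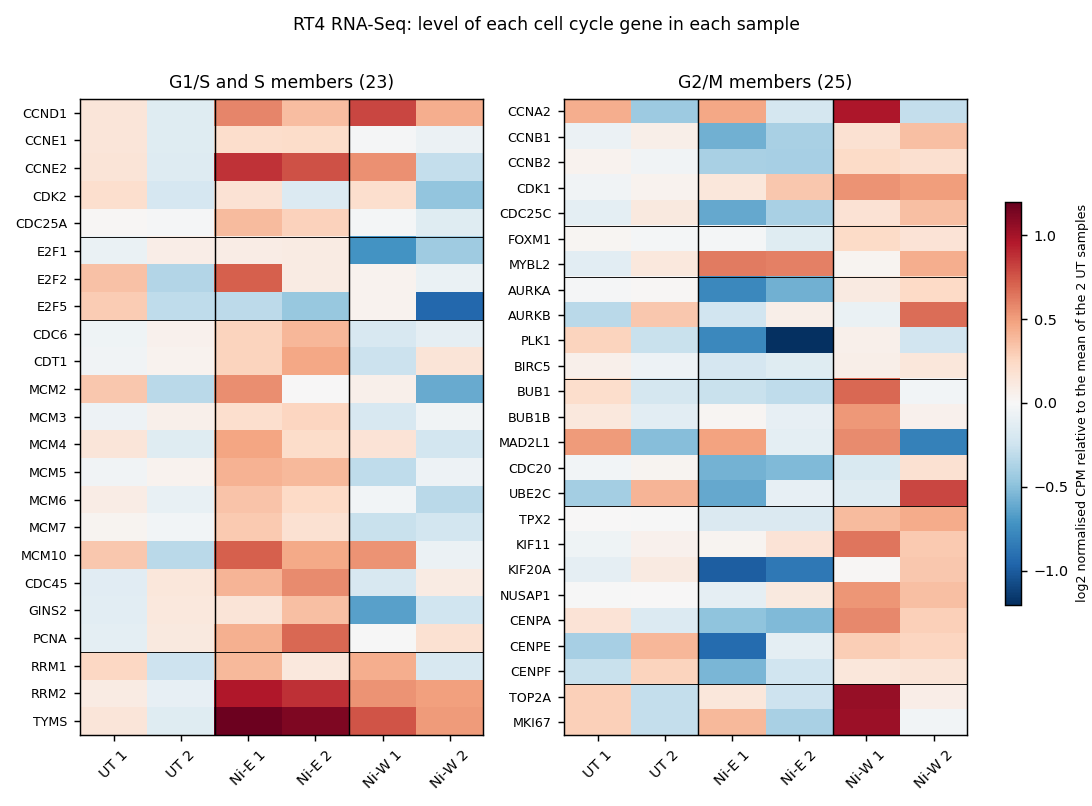
Level of each gene (rows, ordered by role, with lines between roles) in each RT4 sample (columns), as log2 normalised CPM relative to the mean of the 2 UT samples, with colours limited at −1.2 and 1.2. In the left panel most of the 23 G1/S and S genes are red in both Ni-E samples, and in the right panel 12 of the 25 G2/M genes are below both UT samples in both Ni-E samples (19.3% of all genes tested are).

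During exposure (Ni-E vs UT), G1/S and S genes in RT4 cells were higher with few exceptions and G2/M genes were mostly lower, but 1 of the 48 genes was called. TYMS, the enzyme that makes thymidylate for DNA synthesis, rose 2.21-fold. Of the 23 G1/S and S genes, 21 had a log2 fold change above 0 and 18 were higher in both Ni-E samples than in both UT samples, against 20.3% of all genes tested. Conversely, 1 of the 23 was lower in both, against 19.3% of all genes. Their median log2 fold change was 0.335, 0.320 within replicate 1 and 0.362 within replicate 2, against −0.0118 over all genes tested. Among all genes, 1.45% were called higher and 0.71% were called lower. At an unadjusted p below 0.05, 5 of the 23 were higher and none was lower, where 1043 of all 14502 genes were higher and 730 lower. With the replicate number as a block, 5 of the 48 members were called higher and 3 lower, against 1108 higher and 725 lower among all genes.

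TYMS (chr18:657653-673578 of GRCh38) and RRM2, which also supplies DNA precursors, stood at the top of this list. The level of TYMS was 122.5 and 100.4 normalised CPM in UT, 251 and 241.3 in Ni-E, and 187.4 and 158.2 in Ni-W. The groups did not overlap, with Ni-W between UT and Ni-E. The log2 fold change of TYMS in Ni-E was 1.14 ± 0.18 (SE, edgeR adjusted p = 0.0456). This call was not kept when a UT or a Ni-E sample was left out, with an adjusted p of 0.189 without UT replicate 1, 0.344 without UT replicate 2, 0.364 without Ni-E replicate 1 and 0.316 without Ni-E replicate 2. It was also not kept with a minimum of 10 counts in every sample (adjusted p = 0.0514) or with limma on log2(TPM + 1) (adjusted p = 0.195), while the log2 fold change stayed between 1.01 and 1.30 without 1 of these samples. TYMS overlaps ENOSF1, transcribed from the other strand, over 3261 bases (chr18:670318-673578), and the library kit did not keep strand, so reads there cannot be told apart. The level of ENOSF1 was 103.5 and 128.4 normalised CPM in UT, 149.1 and 184.5 in Ni-E, and 114.2 and 144.9 in Ni-W (Ni-E vs UT log2 fold change 0.52, adjusted p = 0.427).

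RRM2 (chr2:10120698-10211725), the regulated subunit of ribonucleotide reductase, which makes deoxynucleotides, was the next in order. Its level was 178.5 and 154.9 normalised CPM in UT, 323.5 and 304.7 in Ni-E, and 241.3 and 233.6 in Ni-W. These groups did not overlap and had the same order as those of TYMS. The log2 fold change of RRM2 in Ni-E was 0.91 ± 0.16, just outside the adjusted p limit (adjusted p = 0.0566). RRM1, the partner subunit, which varies less over the cycle, had 92.3 and 65.4 normalised CPM in UT against 101.9 and 84.9 in Ni-E, and these groups overlapped.

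The genes that license and copy DNA were the most even group of the list. All 12 licensing, helicase and fork genes had a log2 fold change above 0 in Ni-E, 11 of them without overlap of the groups, and their median was 0.342. PCNA (chr20:5114953-5126626), the sliding clamp of DNA polymerase, had 216.8 and 256.4 normalised CPM in UT, 317.9 and 379.2 in Ni-E, and 234.6 and 268.2 in Ni-W. Its Ni-E samples lay above all 4 others. The log2 fold change of PCNA in Ni-E was 0.56 ± 0.19 (adjusted p = 0.277). MCM5, a subunit of the replicative helicase, had 145.6 and 155.3 normalised CPM in UT, 200.5 and 197 in Ni-E, and 121.8 and 144 in Ni-W (Ni-E log2 fold change 0.40 ± 0.16, adjusted p = 0.404). Here too the Ni-E samples were the highest, and both Ni-W samples were the lowest. CDC6, which loads the helicase onto origins, had 93.1 and 100.5 normalised CPM in UT, 116.3 and 127.9 in Ni-E, and 84.8 and 89.8 in Ni-W, in the same order.

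The cyclins and E2F factors upstream of these genes were less uniform. CCND1 (chr11:69641156-69654474), which codes for cyclin D1, had 506.2 and 414.1 normalised CPM in UT, 686.8 and 592.2 in Ni-E, and 799.4 and 620.8 in Ni-W. Both treated groups lay above UT and overlapped each other. Its log2 fold change in Ni-E was 0.48 ± 0.21 (adjusted p = 0.472). CCNE2, which codes for cyclin E2, had 12 and 9.74 normalised CPM in UT, 19.7 and 18.4 in Ni-E, and 15.8 and 8.87 in Ni-W, with a Ni-E log2 fold change of 0.81 ± 0.32 (adjusted p = 0.391). CDC25A, the phosphatase that frees CDK2, had 40.7 and 39.7 normalised CPM in UT and 52.3 and 48.8 in Ni-E. By contrast, E2F1 (chr20:33675477-33686385) differed little in this comparison, with 57.8 and 64.3 normalised CPM in UT and 65 and 65.2 in Ni-E (log2 fold change 0.09 ± 0.18, adjusted p = 0.995). The E2F factors as a role were mixed, with E2F2 overlapping between the groups and E2F5 lower by a narrow margin in both Ni-E samples (11.08 and 10.06) than in both UT samples (17.03 and 11.11).

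**Figure D2:**
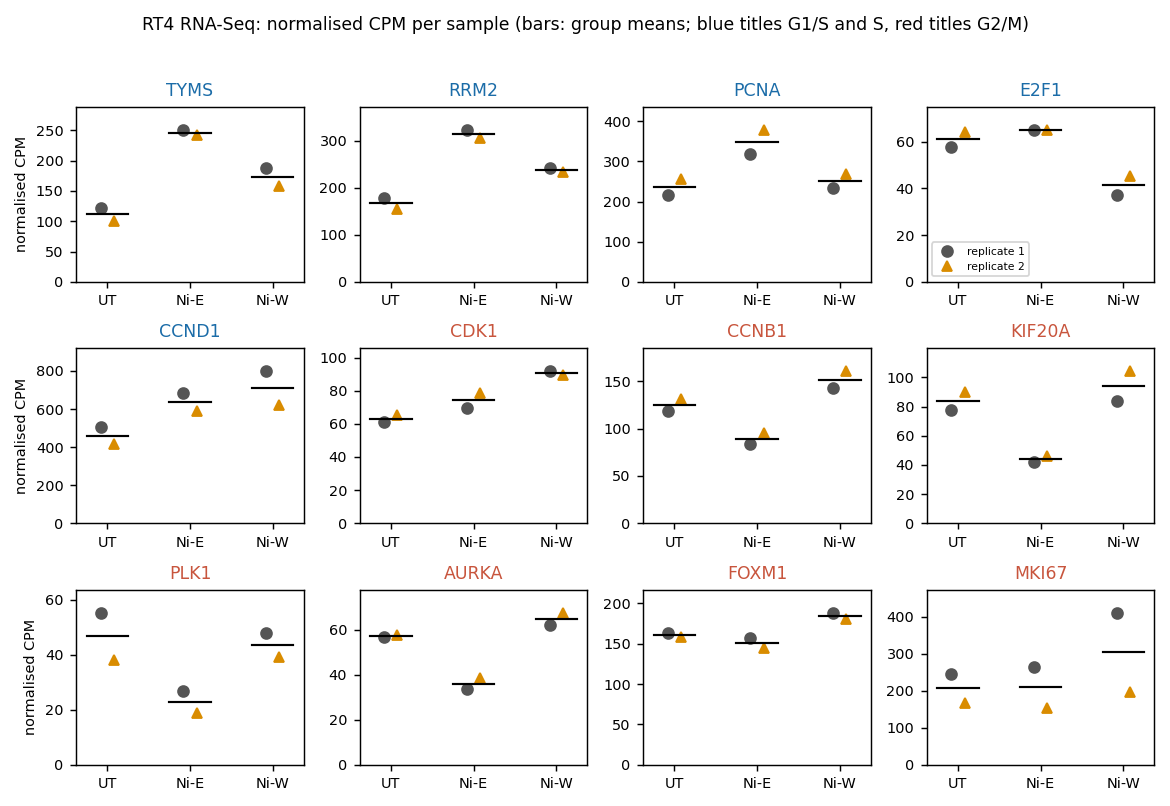
Normalised CPM of 12 genes in each RT4 sample (circles replicate 1, triangles replicate 2, bars group means, each axis from 0). TYMS and RRM2 are lowest in UT and highest in Ni-E, KIF20A, PLK1 and AURKA are lowest in Ni-E, and the 3 groups of MKI67 overlap.

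The G2/M genes went the other way in Ni-E, with a smaller median and more spread. Of the 25, 18 had a log2 fold change below 0. Without overlap of the groups, 12 were lower in Ni-E than in UT, against 19.3% of all genes, and 2 were higher, against 20.3%. The median was −0.173, −0.207 within replicate 1 and −0.168 within replicate 2. Without Ni-E replicate 1 it was −0.264, and without Ni-E replicate 2 it was −0.269. No G2/M gene was called in either direction, and at an unadjusted p below 0.05, 6 were lower and 1 was higher. Of all 14502 genes, 730 were lower and 1043 higher at that limit. DESeq2 called KIF20A as lower.

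PLK1, KIF20A and AURKA had the lowest log2 fold changes of the list, but their roles were not uniform. KIF20A (chr5:138178719-138187723), a kinesin needed for cytokinesis, had 77.6 and 89.9 normalised CPM in UT, 42.2 and 46.1 in Ni-E, and 84.1 and 104.3 in Ni-W. Both Ni-E samples were below the other 4, whose groups overlapped. The log2 fold change of KIF20A in Ni-E was −0.92 ± 0.19 (adjusted p = 0.0937). PLK1 (chr16:23677656-23690367), a kinase of mitotic entry and spindle assembly, had 55.3 and 38.1 normalised CPM in UT, 26.9 and 18.7 in Ni-E, and 47.8 and 39.1 in Ni-W, with a log2 fold change of −1.04 ± 0.29 (adjusted p = 0.182). Its replicate 1 was the higher in every group, and the log2 difference from UT was −1.04 within replicate 1 and −1.03 within replicate 2. The related kinase AURKB overlapped between the groups, with 29.6 and 46.1 normalised CPM in UT and 31.4 and 38.8 in Ni-E, and so did the motor KIF11, with 38.4 and 41.3 in UT and 40.7 and 44.7 in Ni-E. AURKA, a centrosome and spindle kinase, had 56.7 and 57.8 normalised CPM in UT, 33.4 and 38.4 in Ni-E, and 61.9 and 67.6 in Ni-W (log2 fold change −0.67 ± 0.17, adjusted p = 0.157). CDC20, the activator of the anaphase-promoting complex, had 101.3 and 105.6 normalised CPM in UT, 69.8 and 71.6 in Ni-E, and 91 and 117.3 in Ni-W (log2 fold change −0.55 ± 0.19, adjusted p = 0.291). KIF20A, AURKA, CDC20 and PLK1 are described because of their values, outside the rule for named genes. BIRC5, the survivin subunit of the chromosomal passenger complex, had the highest TPM of its role, with 109.9 and 101.3 normalised CPM in UT and 91.9 and 95.4 in Ni-E (log2 fold change −0.17 ± 0.15, adjusted p = 0.882).

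Within the role of G2/M cyclins, CDK1 and its activating phosphatase, genes differed in direction. CCNB1 (chr5:69167135-69178245), which codes for cyclin B1, had 118.9 and 131.5 normalised CPM in UT, 83.7 and 95.2 in Ni-E, and 142.3 and 160.7 in Ni-W, and the 3 groups did not overlap. Its Ni-E log2 fold change was −0.49 ± 0.17 (adjusted p = 0.310). CCNB2, which codes for cyclin B2, had 70.6 and 66.2 normalised CPM in UT, 52.1 and 52 in Ni-E, and 80.2 and 78.1 in Ni-W (Ni-E log2 fold change −0.39 ± 0.16, adjusted p = 0.407). CCNA2, which codes for cyclin A2, overlapped between UT (36.4 and 19.8 normalised CPM) and Ni-E (37.1 and 23.2). CDK1 (chr10:60778331-60794852), the kinase of mitotic entry, was higher in each treated sample than in UT, with 61.2 and 65.2 normalised CPM in UT, 69.4 and 78.9 in Ni-E, and 91.8 and 89.2 in Ni-W. Its Ni-E log2 fold change was 0.23 ± 0.17 (adjusted p = 0.798). The transcription factors of this phase were split as well. MYBL2, which codes for B-MYB and is itself an E2F target, had 40.8 and 48.8 normalised CPM in UT, 69 and 67.7 in Ni-E, and 45.6 and 60.2 in Ni-W (Ni-E log2 fold change 0.61 ± 0.21, adjusted p = 0.309). FOXM1 had 163.6 and 157.9 normalised CPM in UT, 157.7 and 145.2 in Ni-E, and 188.8 and 180.5 in Ni-W (Ni-E log2 fold change −0.09 ± 0.15, adjusted p = 0.994).

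The usual proliferation markers differed between replicates in every group. MKI67 (chr10:128096659-128126423), which codes for the Ki-67 antigen, had 246 and 166.4 normalised CPM in UT, 265.2 and 154.2 in Ni-E, and 411.3 and 197.2 in Ni-W. TOP2A, the topoisomerase that untangles sister chromatids, had 266.9 and 178.9 normalised CPM in UT, 240 and 184.1 in Ni-E, and 450.1 and 230.9 in Ni-W. Both genes overlapped between UT and Ni-E and were higher in the smaller replicate 1 library of every group. UBE2C, the ubiquitin-conjugating enzyme of the anaphase-promoting complex, showed the opposite order of replicates, with 56.8 and 99.6 normalised CPM in UT, 49.2 and 70.1 in Ni-E, and 67.7 and 131.1 in Ni-W. In each of these genes all 3 groups overlapped. Within each replicate number, however, the Ni-W sample was above both others. The log2 difference from UT within replicates 1 and 2 was 0.74 and 0.25 for MKI67, 0.75 and 0.37 for TOP2A, and 0.25 and 0.40 for UBE2C. From Ni-E it was 0.63 and 0.35 for MKI67, 0.91 and 0.33 for TOP2A, and 0.46 and 0.90 for UBE2C.

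**Figure D3:**
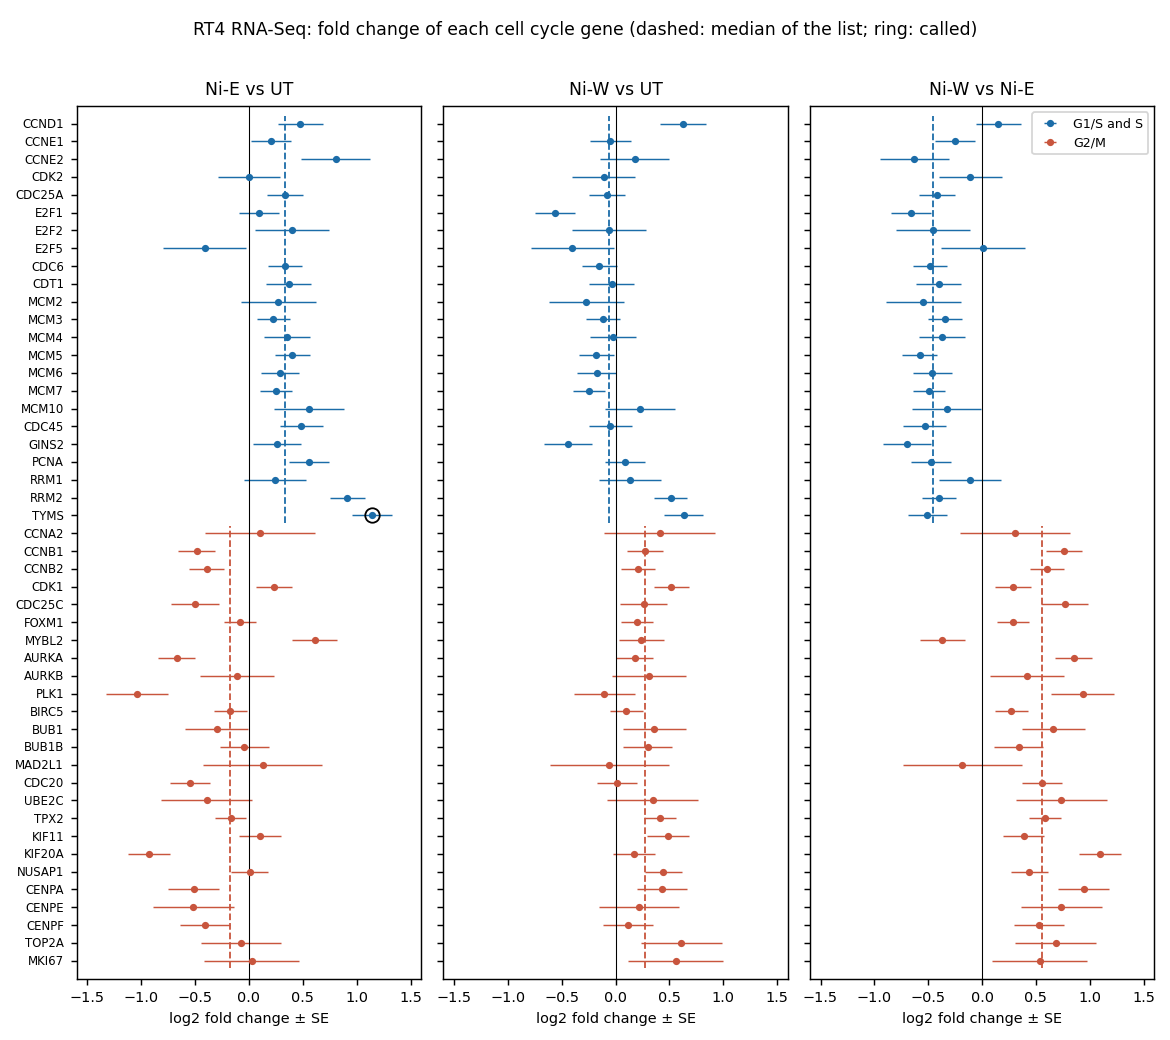
Log2 fold change (points) with its SE (bars) of each of the 48 genes in the 3 RT4 comparisons, with the list medians as dashed lines and a ring on the called gene. The medians of G1/S and S and of G2/M genes are 0.335 and −0.173 in Ni-E vs UT, −0.0588 and 0.275 in Ni-W vs UT, and −0.455 and 0.559 in Ni-W vs Ni-E.

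After 2 weeks without nickel (Ni-W vs UT), the order of the lists was turned. The G1/S and S genes centred near the UT level and most G2/M genes were above it, but no member was called in either direction. Among all genes 0.503% were called higher and 0.0965% lower. Of the 25 G2/M genes, 23 had a log2 fold change above 0 and 11 were higher in both Ni-W samples than in both UT samples, against 15.1% of all genes, with a median of 0.275 (0.289 within replicate 1 and 0.240 within replicate 2). None of the 25 was lower in both, against 14.1% of all genes. Of the 23 G1/S and S genes, 3 were higher and 6 lower without overlap, with a median of −0.0588 that ranged from −0.116 to −0.0123 when 1 library was left out. At an unadjusted p below 0.05, 4 G2/M genes were higher, and of the G1/S and S genes 3 were higher and 1 was lower. Of all 14502 genes, 868 were higher and 455 lower at that limit. With the replicate number as a block, 2 members were called higher, against 840 higher and 403 lower among all genes. DESeq2 called no member in this comparison.

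Named genes followed this pattern with exceptions in both lists. CDK1 had its highest levels here, with a log2 fold change over UT of 0.52 ± 0.17 (adjusted p = 0.362). NUSAP1, a spindle protein that binds microtubules, had 76.3 and 76.4 normalised CPM in UT, 70.8 and 82.6 in Ni-E, and 109.9 and 97.9 in Ni-W, with a log2 fold change of 0.44 ± 0.17 (adjusted p = 0.512). TPX2, which activates AURKA on the spindle, had 112 and 111.2 normalised CPM in UT, 99.2 and 99 in Ni-E, and 145.1 and 152.4 in Ni-W (log2 fold change 0.41 ± 0.15, adjusted p = 0.450). KIF11, the kinesin that pushes the spindle poles apart, had 38.4 and 41.3 normalised CPM in UT, 40.7 and 44.7 in Ni-E, and 62.1 and 49.5 in Ni-W (log2 fold change 0.48 ± 0.19, adjusted p = 0.535). In all 4 of these genes both Ni-W samples were above the other 4 samples. They are the 4 G2/M genes with an unadjusted p below 0.05 in this comparison. PLK1 and MAD2L1 were the 2 G2/M genes with a log2 fold change below 0, −0.11 ± 0.28 and −0.06 ± 0.55. CDC20 was level with UT (0.01 ± 0.18). CCNB1 and FOXM1 were nearer to UT, with log2 fold changes of 0.28 ± 0.17 (adjusted p = 0.869) and 0.20 ± 0.15 (adjusted p = 0.970).

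Within the G1/S and S list, TYMS, RRM2 and CCND1 stayed above UT and E2F1 went below it. The log2 fold change of TYMS in Ni-W was 0.63 ± 0.18 (adjusted p = 0.286), that of RRM2 was 0.51 ± 0.16 (adjusted p = 0.338), and that of CCND1 was 0.63 ± 0.21 (adjusted p = 0.400). E2F1 had 37.2 and 45.5 normalised CPM in Ni-W, below all 4 other samples, with a log2 fold change of −0.56 ± 0.19 (adjusted p = 0.386). GINS2, a subunit of the active helicase, had 33 and 39.2 normalised CPM in UT, 40.1 and 46.2 in Ni-E, and 22.9 and 30.4 in Ni-W (log2 fold change −0.44 ± 0.22, adjusted p = 0.737). Its Ni-W samples were also the lowest of the 6.

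The direct comparison of Ni-W with Ni-E gave the widest gap between the lists and no called gene. In this comparison 0% of all genes were called higher and 0% lower, with 472 genes higher and 336 lower at an unadjusted p below 0.05 and 89 higher and 50 lower by DESeq2. Of the 25 G2/M genes, 18 were higher in both Ni-W samples than in both Ni-E samples, against 12.7% of all genes, and 1 was lower. Of the 23 G1/S and S genes, 17 were lower in both, against 12.7% of all genes, and none was higher. The medians were 0.559 for G2/M genes (0.622 within replicate 1 and 0.374 within replicate 2) and −0.455 for G1/S and S genes (−0.422 and −0.452), against 0.0181 over all genes. At an unadjusted p below 0.05, 10 G2/M genes were higher and 11 G1/S and S genes were lower. With the replicate number as a block, 11 members were called higher and 2 lower, against 394 higher and 261 lower among all genes. The Ni-E samples enter both this comparison and that with UT, so the values of the comparisons are not independent.

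By size, KIF20A led this comparison with a log2 fold change of 1.09 ± 0.20 (adjusted p = 0.260), followed by CENPA, the histone H3 variant of the centromere, with 0.94 ± 0.24 (adjusted p = 0.455). The level of CENPA was 9.40 and 7.50 normalised CPM in UT, 6.01 and 5.83 in Ni-E, and 12.5 and 10.3 in Ni-W. The log2 fold change was 0.93 ± 0.29 for PLK1 (adjusted p = 0.625), 0.85 ± 0.17 for AURKA (adjusted p = 0.332) and 0.76 ± 0.17 for CCNB1 (adjusted p = 0.372). DESeq2 called AURKA and KIF20A higher. On the other side were E2F1 with −0.66 ± 0.19 (adjusted p = 0.558), GINS2 with −0.70 ± 0.22 (adjusted p = 0.661), MCM5 with −0.58 ± 0.16 (adjusted p = 0.545) and TYMS with −0.51 ± 0.18 (adjusted p = 0.772). MYBL2 was the 1 G2/M gene whose Ni-W samples both lay below both Ni-E samples.

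Other genes of the same phases, from lists that held none of the 48, were counted in the same fit. These lists too were chosen with earlier results of these data known, and the samples are the same. The 31 other S-phase genes had a median log2 fold change of 0.339 in Ni-E vs UT, with 30 above 0 and 20 higher without overlap (20.3% of all genes), and −0.263 in Ni-W vs Ni-E. In Ni-W vs UT their median was 0.104, on the other side of 0 from that of the G1/S and S members. For the 37 other G2/M genes these medians were −0.0385, 0.298 and 0.412 for Ni-E vs UT, Ni-W vs UT and Ni-W vs Ni-E. In Ni-E vs UT, 3 of these 37 were higher and 7 lower without overlap, where 19.3% of all genes were lower, so that these genes did not stand apart from all genes as lower. In Ni-W vs UT, 17 were higher and none lower without overlap, against 15.1% and 14.1% of all genes. None of these genes was called in any of the 3 comparisons.

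In BEAS-2B cells the measure was H3K4me3 at the promoter, given as RPKM (reads per kilobase of window, scaled to the mapped reads of the library) over 2 kb on each side of the start. The RPKM of all 48 promoters was above the library median in UT (1.57 RPKM), from 3.86 RPKM at GINS2 to 16.3 RPKM at KIF20A. The list medians were 7.40 RPKM for G1/S and S and 8.98 RPKM for G2/M promoters in UT, 7.27 and 9.21 RPKM in Ni-E, and 3.92 and 6.10 RPKM in Ni-W. No member was below 1 RPKM in any library. Promoters were compared by a score, the difference of the square roots of the RPKM after division by the median of each library, on which 0 is no difference. Counting error alone gives the Ni-E minus UT score an SE of 0.051. The SE of scores that use the Ni-W library is 0.0572 against UT and 0.0554 against Ni-E. With 1 library per condition there was no test, and the intervals of RPKM cover counting error only (95% Wilson). The library medians differed by a log2 ratio of −0.177 (Ni-E to UT), −0.487 (Ni-W to UT) and −0.310 (Ni-W to Ni-E), and scores are relative to that shift. Since the members are strongly marked promoters, their scores are set beside the 11021 promoters within their range of mean RPKM (2.96 to 14.6).

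During exposure the marks of both lists stayed close to those of other promoters. The median score in Ni-E vs UT was 0.0272 for the 23 G1/S and S promoters, 17 of them above 0, and 0.117 for the 25 G2/M promoters, 24 of them above 0, against 0.0893 for promoters of like level. Without scaling by the library medians both signs flipped, to −0.131 and −0.0123. The G1/S and S median also flipped, to −0.0596 with quantile normalization and to −0.0323 when the library median was taken over promoters of at least 1 RPKM, where the G2/M median stayed above 0 (0.0419 and 0.0156). The median of promoters of like level was −0.0557 without scaling, 0 with quantile normalization and −0.00135 over promoters of at least 1 RPKM. It lay between the list medians each time. CCND1 was the 1 member past 1.5-fold in scaled RPKM, against 0.847% of promoters of at least 1 RPKM past it upward and 0.567% downward. Its promoter had 7.40 RPKM (6.91 to 7.92) in UT, 10.2 RPKM (9.68 to 10.7) in Ni-E and 4.31 RPKM (3.95 to 4.70) in Ni-W, for a score of 0.536. These intervals do not overlap, and the score of CCND1 was above 99.9% of the promoters of like level. Next came 2 mitotic genes, CDC20 with 10.3 RPKM in UT and 11.2 RPKM in Ni-E (score 0.274) and PLK1 with 9.90 and 10.7 RPKM (score 0.269). The lowest scores were small, −0.101 at MYBL2 (6.32 and 5.05 RPKM), −0.0835 at E2F2 (5.68 and 4.59 RPKM) and −0.0611 at MCM5 (6.15 and 5.11 RPKM).

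**Figure D4:**
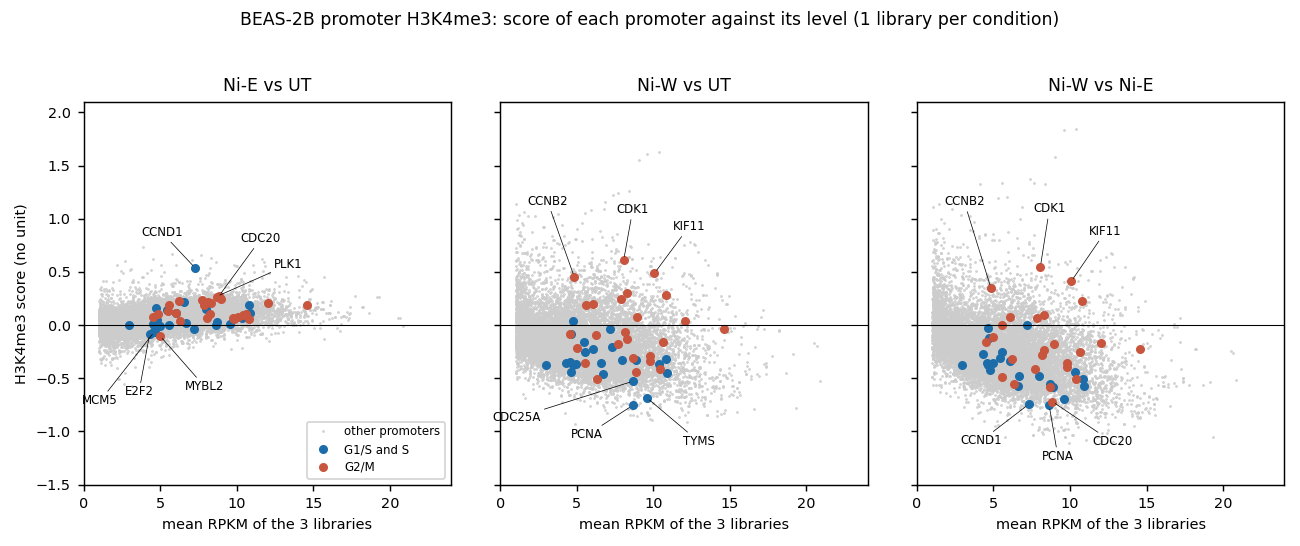
H3K4me3 score of each promoter (vertical axis, no unit) against its mean RPKM over the 3 BEAS-2B libraries, for the members (coloured) and all other promoters of at least 1 mean RPKM (grey). In Ni-W vs UT the G1/S and S promoters lie below 0 with 1 exception, while CDK1 (0.612), KIF11 (0.487) and CCNB2 (0.453) stand above most promoters of their level.

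In the Ni-W clone the lists stood further apart. The median score in Ni-W vs UT was −0.356 for G1/S and S promoters (22 of 23 below 0) and −0.0866 for G2/M promoters, with 15 of 25 below 0, against −0.236 for promoters of like level. The reads summed over promoter windows were also a lower share of this library (22.9%). The G1/S and S median was below 0, and below that of G2/M, under each scaling run, whereas the G2/M median flipped to 0.114 with quantile normalization and to 0.0729 when the median was taken over promoters of at least 1 RPKM. Promoters of like level shifted as well, to −0.6535 without scaling, −0.0451 with quantile normalization and −0.0133 over promoters of at least 1 RPKM. Their median lay below that of G2/M and above that of G1/S and S each time. Of the G1/S and S promoters, 8 were at least 1.5-fold lower in scaled RPKM (CDK2, CDC25A, E2F2, CDT1, MCM5, GINS2, PCNA and TYMS) and none was higher, against 18.4% of promoters of at least 1 RPKM lower and 4.36% higher. Of the G2/M promoters, CDK1 and CCNB2 were at least 1.5-fold higher and CENPA was lower. The other S-phase and other G2/M promoters did not show this gap, with medians of −0.129 (31 promoters) and −0.135 (35 promoters).

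At the low end, PCNA had 11.5 RPKM (10.9 to 12.1) in UT, 10.2 RPKM (9.66 to 10.7) in Ni-E and 4.26 RPKM (3.91 to 4.65) in Ni-W, for a score of −0.756 in Ni-W vs UT. TYMS had 12.5 RPKM (11.8 to 13.2) in UT, 11.1 RPKM (10.6 to 11.7) in Ni-E and 5.11 RPKM (4.72 to 5.53) in Ni-W (score −0.684). CDC25A had 11.0 RPKM in UT, 9.96 RPKM in Ni-E and 5.05 RPKM in Ni-W (score −0.528). In these 3 genes the Ni-W interval lay apart from both others. At the high end, CDK1 had 7.82 RPKM (7.32 to 8.35) in UT, 7.31 RPKM (6.89 to 7.75) in Ni-E and 9.06 RPKM (8.54 to 9.62) in Ni-W, for a score of 0.612 in Ni-W vs UT. Its Ni-W interval lay above both others before any scaling, which was not so for the next genes. KIF11 had 10.2 RPKM (9.66 to 10.8) in UT, 9.61 RPKM in Ni-E and 10.4 RPKM (9.80 to 10.9) in Ni-W, and its score of 0.487 rests on the scaling (0.0190 without it). CCNB2 had 4.62 RPKM (4.25 to 5.04) in UT, 4.61 RPKM in Ni-E and 5.27 RPKM (4.88 to 5.70) in Ni-W (score 0.453, and 0.145 without scaling). The scores of these 6 genes kept their signs under each of the 4 alternatives run.

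The same Ni-W library was also set against the Ni-E library, so these scores share a library with those above. The median score in Ni-W vs Ni-E was −0.427 for G1/S and S promoters, all 23 below 0, and −0.224 for G2/M promoters, 17 of 25 below 0, against −0.315 for promoters of like level. The G2/M median flipped to 0.0865 with quantile normalization and to 0.0814 over promoters of at least 1 RPKM. Promoters of like level had medians of −0.0375 and −0.00709 there, again between the 2 lists. At least 1.5-fold lower were 12 G1/S and S and 4 G2/M promoters, and CDK1 was the 1 member higher, against 30.5% of promoters lower and 4.04% higher. CDK1 (score 0.550), KIF11 (0.410) and CCNB2 (0.348) were again the highest. PCNA (−0.756), CCND1 (−0.746) and CDC20 (−0.720) were the lowest.

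To set each promoter beside its surroundings, its log2 ratio of scaled RPKM in Ni-W vs UT was compared with the median over other promoters within 5 Mb that had a mean of at least 3 RPKM. Between 13 and 132 neighbours were available for 47 of the 48 members, all but MCM4. Of the 25 G2/M promoters, 20 were above their neighbours' median, by 0.155 at the median, and of 22 G1/S and S promoters 8 were above and 14 below, by −0.0836 at the median. The neighbours themselves had medians of −0.296 around G2/M genes and −0.495 around G1/S and S genes. The log2 ratio at CDK1 was 0.70 and that of its neighbours −0.32. For CCNB2 these values were 0.68 and 0.16. PCNA had −0.95 and its neighbours −0.62, so that nearby promoters were low as well. CCNB1 had −0.54 where its neighbours had −0.06.

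**Figure D5:**
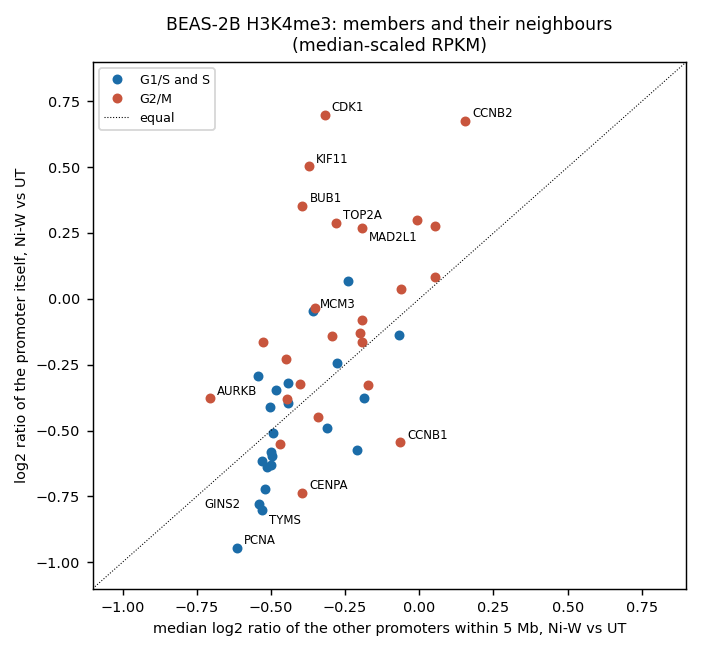
Log2 ratio of median-scaled H3K4me3 RPKM in Ni-W vs UT for each promoter (vertical axis) against the median of other promoters within 5 Mb (horizontal axis), with the dotted line marking equal values. G2/M promoters lie mostly above the line (20 of 25), with CDK1 the farthest at 0.70 against −0.32, and G1/S and S promoters lie on both sides (8 of 22 above).

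RNA and H3K4me3 were measured in different cell lines after different times without nickel, so their values stand side by side only. For CDK1, both Ni-W RNA samples of RT4 and the Ni-W H3K4me3 value of BEAS-2B were above UT. For TYMS, RT4 RNA in Ni-W was above UT (log2 fold change 0.63) while BEAS-2B H3K4me3 in Ni-W was below it (score −0.684). CCND1 RNA in RT4 was above UT in all 4 treated samples, whereas its BEAS-2B H3K4me3 was above UT in Ni-E and below it in Ni-W. Its Ni-W vs UT score was −0.210 against a median of −0.236 for promoters of like level, so this lower value was not particular to CCND1.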

How the data were processed

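RT4 cells were measured by RNA-Seq (6 samples, 3 groups of 2) and BEAS-2B cells by H3K4me3 ChIP-Seq (3 libraries). Per the study's methods, the TruSeq RNA libraries were aligned with STAR to hg19 with RefSeq genes, and H3K4me3 reads with BWA to hg38, with 1 copy of redundant reads kept and no peaks called. The authors deposited RSEM estimated counts with TPM and FPKM per gene. How the RSEM estimated counts were made is not given in the sources used here. FPKM, as deposited, was the TPM rescaled and was not used further. The deposited H3K4me3 RPKM was computed by the authors over 2 kb on each side of each start. All RPKM values were whole multiples of 1 read (tolerance 0.0005 RPKM), from which depths of about 28400000 (UT), 37500000 (Ni-E) and 29900000 (Ni-W) mapped reads and counting intervals (95% Wilson) were computed. A floor of 3 reads was 0.0264, 0.0200 and 0.0251 RPKM, and intervals and floors cover counting error only. The labels give 2 weeks without nickel for Ni-W. More than 6 months is taken from the methods for BEAS-2B. Input libraries were not analysed here.

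Estimated counts were rounded and tested with edgeR 4.0.16 (R 4.3.3, quasi-likelihood test, TMM factors, filterByExpr, 1 fit of the 3 groups). Alternatives were RLE and upper-quartile factors, other count filters, DESeq2 1.42.0, limma 3.58.1 on log2(TPM + 1) and log2(TPM + 0.1), the replicate number as a block, fits of 2 groups and each sample left out. The methods state 2 biological replicates, and replicates of each group differed beyond sampling noise (chi-square per degree of freedom 39.8 to 121). P-values measure the spread between these samples. Exact permutation of 2 against 2 samples cannot go below 0.333 and was not used. On simulated data for Ni-E vs UT (14315 genes) the fit called 66 of 100 genes changed 4-fold, 3 of 100 changed 2-fold and 5 unchanged genes, so that absence of a call says little at smaller changes. On simulated promoters for Ni-W vs UT (26237), the direction of 200 of 200 changes of 1.5-fold was recovered, and 94.8% of 11467 unchanged promoters stayed within counting error. Both simulated libraries drew reads from the same UT rates, apart from the changes planted at promoters of at least 3 RPKM. They held counting error only, with no shift in the share of reads in promoters and no other difference between libraries. Recovery in the measured libraries was therefore not tested.

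Genes named with values were MKI67, PCNA, CDK1, CCND1, called members, the member with the highest mean TPM in each role without a called member, and the 3 highest and 3 lowest H3K4me3 scores of each comparison. RRM2, MCM5, CDC6, CCNE2, E2F5, GINS2, RRM1, CCNB2, CCNA2, AURKB, MAD2L1, MCM3, MYBL2, TPX2, KIF11, CENPA, PLK1, AURKA, CDC20 and KIF20A in RNA, and ENOSF1, were added after their values were seen. The members and all gene lists were chosen with earlier results of these data known. Of the 48 members, 14 overlap a gene on the other strand. Gene positions are from GENCODE 44 (GRCh38), which placed 86.6% of the listed promoters.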

Additional observations from a re-analysis of the deposited data

How the results depend on the processing

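The BEAS-2B scores depended on the scaling. Without median scaling, the median scores of G1/S and S and of G2/M promoters were −0.131 and −0.0123 in Ni-E vs UT, −0.776 and −0.535 in Ni-W vs UT, and −0.692 and −0.559 in Ni-W vs Ni-E. With quantile normalization they were −0.169 and 0.114 in Ni-W vs UT, and −0.160 and 0.0865 in Ni-W vs Ni-E. Over promoters of at least 1 RPKM they were −0.0755 and 0.0729 in Ni-W vs UT, −0.0638 and 0.0814 in Ni-W vs Ni-E, and −0.0323 and 0.0156 in Ni-E vs UT, where quantile normalization gave −0.0596 and 0.0419. The G1/S and S median was below the G2/M median in each of these. In RT4, the count of members called higher in Ni-E vs UT was 2 with no count filter (RRM2 and TYMS, also the 2 of DESeq2), 0 with at least 10 counts in every sample, 0 with limma at either pseudocount, and 0 to 1 with 1 sample left out. DESeq2 called 1 member lower in that comparison and 2 higher in Ni-W vs Ni-E. With 1 sample left out, the medians for G1/S and S genes ranged from 0.278 to 0.382 (Ni-E vs UT), −0.116 to −0.0123 (Ni-W vs UT) and −0.462 to −0.370 (Ni-W vs Ni-E), and those for G2/M genes from −0.269 to −0.165, 0.211 to 0.306 and 0.546 to 0.578. A lone sample was then assumed to vary like the other groups. The limma median of G1/S and S genes in Ni-W vs Ni-E was −0.368 or −0.375. Single genes were run through the alternatives only where an RT4 fold change with its test is given above, or for the 3 highest and 3 lowest H3K4me3 scores. Among these no alternative turned a direction. The directions of other genes, such as MKI67 and TOP2A in Ni-E vs UT, were not followed. Of the H3K4me3 scores, 42 values moved by more than the counting error of the main score, with their sign kept. Some alternatives are on another scale, so a move of that size can come from the scale alone. In RT4, 21 single-gene values gained a call and 7 lost one, all 7 of them for TYMS. The labels do not say whether same-numbered samples were handled together, but deviations from the group means correlated between them (r = 0.657, 0.764 and 0.689 over 14502 genes). The main fit leaves this shared difference out. With the replicate block, members called were 5 higher (CCNE2, MCM10, MYBL2, RRM2 and TYMS) and 3 lower (AURKA, KIF20A and PLK1) in Ni-E vs UT, 2 higher in Ni-W vs UT (CCND1 and TYMS), and 11 higher (AURKA, BUB1, CCNB1, CCNB2, CDC25C, CENPA, KIF20A, PLK1, TOP2A, TPX2 and UBE2C) and 2 lower (E2F1 and GINS2) in Ni-W vs Ni-E. Among all genes the block gave 1108 higher and 725 lower in Ni-E vs UT, 840 higher and 403 lower in Ni-W vs UT, and 394 higher and 261 lower in Ni-W vs Ni-E. With 2 samples a group, changes under 2-fold were mostly beyond what the fit without the block could call. The block fit called some of that size, such as RRM2 and MYBL2 in Ni-E vs UT (log2 fold changes 0.917 and 0.616).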
